A study of Mus musculus with 28 samples.

Results

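The genes described encode the cytoplasmic ribosomal proteins, measured in satellite cells, the cells from which adult mouse muscle regenerates. They were taken as every gene in all 4 deposited tables whose symbol is Rpl or Rps followed by a digit, plus Rplp0, Rplp1, Rplp2 and Rpsa, without the Rps6k kinases and without names marked -ps, which stand for pseudogenes. The rule found 86 of the 22552 genes listed. Of these, 46 encode proteins of the large subunit and 31 proteins of the small subunit. The other 9 are paralogues of a ribosomal protein (Rpl3l, Rpl7l1, Rpl10l, Rpl22l1, Rpl36al, Rpl39l, Rps27l, Rps4y2) or share only the name: Rps19bp1 encodes AROS, a protein that binds Rps19 and was named as an active regulator of SIRT1.

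The study measured polyA RNA in satellite cells of SIRT1mKO (KO) and WT mice in 3 states, and the labels give the C57Bl/6 background. In KO mice the floxed exon 4 of Sirt1, which lies in the deacetylase domain, is removed by Cre expressed from a Pax7 knock-in (Pax7cre/+), so the deletion depends on cells that express Pax7 or descend from such cells. FI cells were freshly isolated by FACS and stand for quiescence. Cul cells were grown in medium with 20% serum and bFGF at 12.5 ng/ml and proliferate, and Diff cells spent 24 hours in differentiation medium, which holds 2% horse serum. The libraries numbered 3 in KO_FI, 2 in KO_Cul, 2 in KO_Diff, 4 in WT_Cul, 2 in WT_Diff and 5 in WT_FI. They lie in 4 tables: KO_FI against WT_FI with 3 libraries each, KO_Cul against WT_Cul, KO_Diff against WT_Diff, and a table of WT states with WT_Cul against WT_FI, with 2 libraries each. The other 10 samples, of ChIP and input DNA, were not analysed here. Whether replicate libraries were made from different animals or cultures is not in the labels, and a p-value here reflects only the spread among the libraries at hand, which may be technical.

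A ribosome is built from a small subunit, which reads the mRNA, and a large subunit, which joins amino acids, and each holds one copy of nearly every ribosomal protein. The mRNAs of these proteins are among the most abundant of growing cells. They start with a C followed by a run of pyrimidines, the 5′ terminal oligopyrimidine tract, through which mTOR and the RNA-binding protein Larp1 set their translation. Several of the proteins have other roles: Rpl5 and Rpl11 bind the p53 ligase Mdm2, Rps6 is the substrate of the S6 kinases, and Rpsa is also known as the laminin receptor. Quiescent satellite cells are small and make little protein, and on activation they enlarge and divide. Mouse ribosomal protein genes have many processed pseudogenes, whose sequences are close to those of the mRNAs.

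Libraries held 27956211 to 65155855 fragments for the KO and WT comparison in FI, 75564698 to 82450557 for that in Cul, 71321961 to 82605001 for that in Diff and 23988723 to 31384139 for the WT states. Sirt1 stood at 66.9, 37.3 and 44.6 unscaled CPM (fragments of a gene per 1000000 fragments of the library) in KO_FI libraries, against 84.2, 47.0 and 46.9 in WT_FI libraries. It stood at 32.4 and 48.7 unscaled CPM in KO_Cul, against 58.9 and 70.9 in WT_Cul, and at 43.9 and 26.7 unscaled CPM in KO_Diff, against 55.4 and 26.9 in WT_Diff. These counts cover all exons of the gene, so they do not check the deletion of 1 exon. The satellite cell markers (Pax7, Calcr and 4 others) were above 0 in all 18 libraries. The tables name each library by its group and by an index from 0, and this index is used below.

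Libraries stood apart in the ribosomal protein genes themselves, along a line that runs across genotype and state. In 6 libraries, the 4 of the WT states table and index 0 of both KO_FI and WT_FI, the 86 genes took 0.350% to 2.73% of all fragments, their median was 6.32 to 73.6 unscaled CPM, and 25 to 46 of them were under 10 unscaled CPM. In the other 12 libraries the same genes took 5.02% to 10.2% of all fragments, with a median of 551 to 1139 unscaled CPM and 5 to 9 genes under 10. Rpl10 had 2.52 and 3.24 unscaled CPM in KO_FI and WT_FI index 0, against 986 to 1520 unscaled CPM in the other 4 FI libraries. The same 6 libraries had 7.22% to 8.16% of values above 0 that were not whole at a tolerance of 0.01, against 1.42% to 2.81% in the other 12. Rplp2-ps1, a pseudogene row, reached 336 unscaled CPM in KO_FI index 0, 391 in WT_FI index 0 and 44.4 to 500.4 in the WT states table, and at most 0.667 in the other 12. Rpl34-ps1 did the reverse, with 278 to 699 unscaled CPM in those 12 libraries and at most 0.00396 in the 6. The tables were processed separately, so levels set across them are a description.

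**Figure D1:**
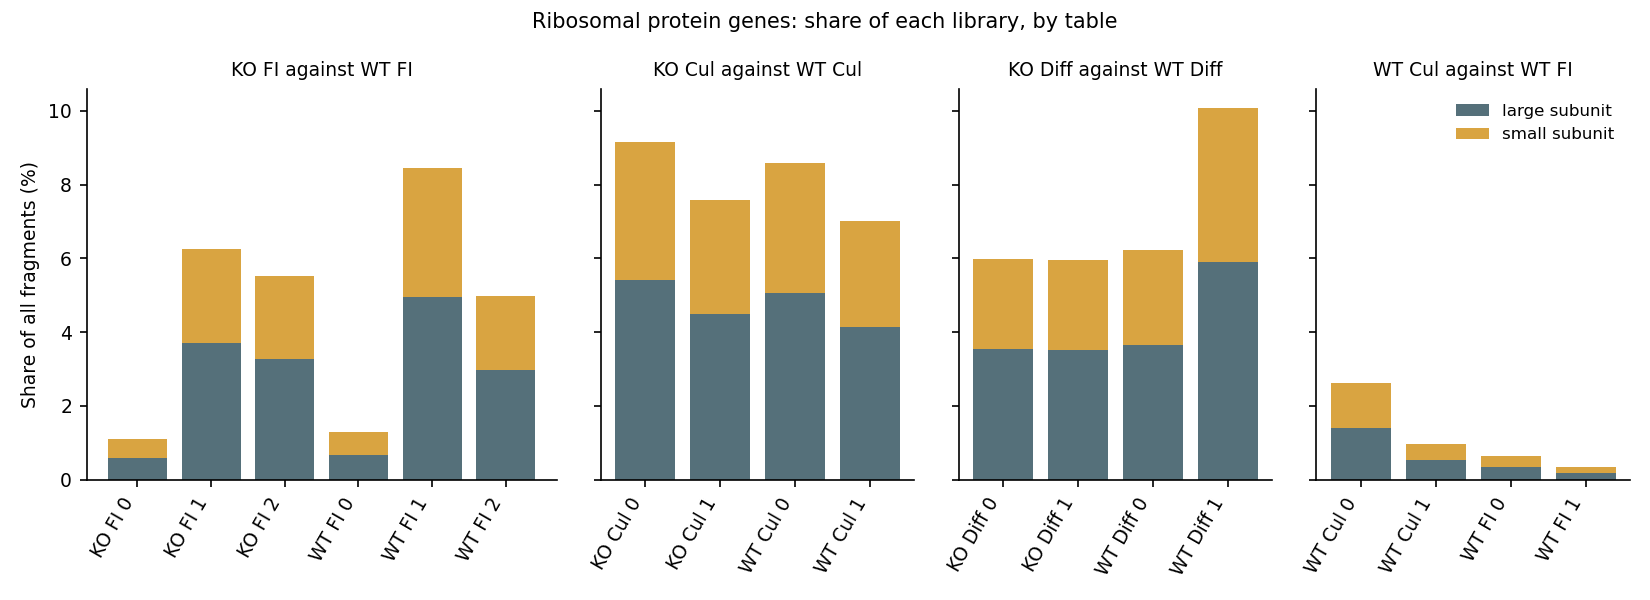
Share of all fragments, in percent, that came from large subunit genes (lower part of each bar) and small subunit genes (upper part), for each library of the 4 tables, with KO left of WT and WT_Cul left of WT_FI. Index 0 of both FI groups and all 4 libraries of the WT states table lie at 0.339% to 2.63%, and the other 12 libraries at 4.99% to 10.1%.

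Among the FI libraries, the ratio of indices 1 and 2 to index 0 differed widely from gene to gene. Over the 77 subunit genes the median level was 16.4 times as high in indices 1 and 2 as in index 0, and the range ran from 0.0619 to 2903. In index 0 the level was over 10 times lower for 47 genes and over 100 times lower for 23, and 8 genes lay within 2-fold. Rpl34, of the large subunit, was the single gene more than 2-fold higher in index 0, with a mean of 97.6 unscaled CPM there and 6.04 in indices 1 and 2. Named pseudogenes of each gene were counted in a reference list of gene symbols, not in the deposited tables. The count took the symbol of the gene followed by -ps, so pseudogenes under other names were missed. The ratio had a median of 7.03 for the 18 genes with no named pseudogene and 18.3 for the 38 genes with 1 to 4. It was 58.3 for the 21 genes with 5 or more. Genes with no named pseudogene also fell far: 9 of the 18 were over 10 times lower in index 0 and 3 over 100 times lower. Among the 38 genes these counts were 22 and 11, and among the 21 genes 16 and 9. Spearman's rho between the number of named pseudogenes and the ratio was 0.36 over the 77 genes. These genes share the same 6 libraries and are not independent replicates. The part of this library difference in the results below was not tested beyond the values without these libraries.

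**Figure D2:**
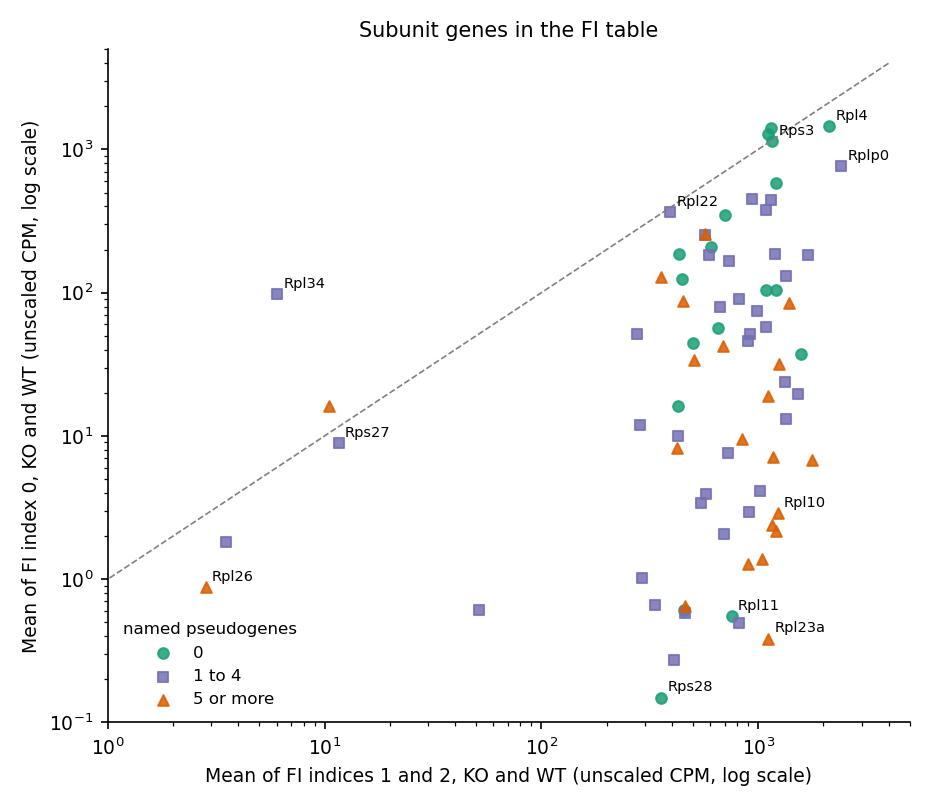
Level of each of the 77 subunit genes, in unscaled CPM on log axes, KO and WT together. The mean of FI index 0 (vertical) is set against the mean of indices 1 and 2 (horizontal). Points are marked by the number of named pseudogenes. Most points lie below the dashed line of equality, at a median ratio of 16.4, and Rpl34 lies above it.

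Which genes carried the counts also depended on the library. Over 100 unscaled CPM in all 18 libraries were found for 9 genes, chosen after their values were seen, among them Rpl4, Rpl8, Rpl13a, Rpl22 and Rplp0 of the large subunit and Rps3 and Rps9 of the small subunit. Rpl26, Rpl30, Rps23 and Rps27 stayed under 110 unscaled CPM in all 18. Rpl21, Rpl29 and Rpl7a were over 300 unscaled CPM in FI indices 1 and 2 and under 100 in all 8 libraries of the Cul and Diff tables. Per length, in the WT states table, Rpl8, Rpl4 and Rplp1 of the large and Rps15 of the small subunit were among the genes with the highest mean levels, and Rpl23a, Rpl27, Rps28 and Rps13 among those with the lowest. Rpl8 had 4004 and 1443 FPKM in WT_Cul and 845 and 494 in WT_FI, while Rpl27 had 5.56 and 2.34 FPKM in WT_Cul and 0.346 and 0.498 in WT_FI. Rps15 had 2297 and 654 FPKM in WT_Cul and 575 and 293 in WT_FI, while Rps13 had 4.52 and 3.58 FPKM in WT_Cul and 0.775 and 0.785 in WT_FI. FPKM, which divides the fragments by library size and transcript length, was scaled within each table.

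The starts of the genes are shown because a pyrimidine tract is the sequence that the family is known to share. The 3 subunit genes shown hold at least 1 of the 4 pyrimidine motifs given below, and the paralogue and the name-alike hold none of them. RefSeq promoters (GRCm38.p6) could be matched for 65 of the 86 genes by symbol. Each line gives the strand of the gene from 40 bases before the annotated start to 14 bases after its first base, and capitals mark any of 4 motifs, namely CTTTCC, the variant CTTTCT, the variant CTTTTC and the variant CTTTTT.
Rps6, chr4:86857353-86857407 (-): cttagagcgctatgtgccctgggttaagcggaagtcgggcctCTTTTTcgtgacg
Rpl4, chr9:64173347-64173401 (+): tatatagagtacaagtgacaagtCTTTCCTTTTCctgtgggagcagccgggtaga
Rpl5, chr5:107900488-107900542 (+): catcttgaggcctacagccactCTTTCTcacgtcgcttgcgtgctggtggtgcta
Rpl7l1, chr17:46782642-46782696 (-): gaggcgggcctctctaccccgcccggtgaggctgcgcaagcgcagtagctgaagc
Rps19bp1, chr15:80264292-80264346 (-): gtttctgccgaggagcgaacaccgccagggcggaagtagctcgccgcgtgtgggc
In Rpl4 the capitals hold both CTTTCC and the overlapping CTTTTC. At least 1 of the 4 motifs stood within 25 bases of the start, on the strand of the gene, in 13 of 34 large subunit genes (38.2%), 6 of 23 small subunit genes (26.1%), 1 of 8 paralogues (12.5%) and 2460 of all 27025 promoters (9.10%). On the opposite strand the shares were 8.82%, 4.35%, 12.5% and 8.33%. Over both subunits 19 of 57 genes (33.3%) held a motif, so the 3 subunit genes shown do not stand for most. Rps2, Rpl36a and Rps24 were among those without. Pyrimidine runs that match none of the 4 motifs, such as that in the Rpl7l1 window, were not counted. A match describes the letters of these windows and shows no site in use.

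In WT cells, both cultured libraries gave a larger share of their fragments to the ribosomal protein genes than both freshly isolated ones (WT_Cul against WT_FI, the table of WT states), and the test was passed by 20 genes that were higher and 1 that was lower. The summed genes took 2.73% and 0.999% of fragments in WT_Cul and 0.651% and 0.350% in WT_FI. The large subunit took 1.40% and 0.542% in WT_Cul, against 0.346% and 0.185% in WT_FI, and the small subunit 1.24% and 0.416%, against 0.288% and 0.154%. Both WT_Cul libraries lay above both WT_FI libraries in each sum, and the WT_Cul libraries differed more from each other than the WT_FI libraries did. On the log2 scale of summed CPM (from here on relative to TMM-scaled library sizes, the scale of all gene levels below), WT_Cul was 1.80 higher for all 86 genes, 1.79 for the large and 1.78 for the small subunit. The exact two-sided permutation test over 2 against 2 libraries gave p = 0.333 for each sum, which is the smallest p it can give. Every library of the WT states table was among those with low levels of these genes. In the other tables the 86 genes took 8.66% and 7.07% of fragments in WT_Cul and 1.31%, 8.48% and 5.02% in WT_FI, which overlap. That comparison runs across separately processed tables and was not tested. In bulk samples, fewer cells of a type and less RNA per cell cannot be told apart.

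Gene by gene, 20 of the 84 members that passed the filter on low counts were called higher in WT_Cul (23.8%, against 12.6% of all 14680 genes tested) and 1 was called lower (16% of all genes), together 25% of members against 28.6% of all genes. The calls are edgeR quasi-likelihood tests at an adjusted p under 0.05. The genes called higher were 9 of the large subunit (Rpl5, Rpl23a, Rpl24, Rpl26, Rpl27, Rpl30, Rpl36a, Rpl37a and Rpl38), 7 of the small subunit (Rps2, Rps13, Rps23, Rps24, Rps27a, Rps29 and Rpsa) and 4 of the paralogues and name-alikes. Their log2 fold changes ran from 2.31 to 4.11, with adjusted p from 0.0103 to 0.0447. Of the called genes, Rpl23a, Rpl24, Rpl27, Rps13 and Rps23, at 5 to 17 fragments in WT_FI libraries, needed their WT_Cul counts to pass the filter. Rpl3l, at 3 and 5 fragments in WT_Cul, needed its WT_FI counts. Their calls thus lean on the group where they are high, and how many of all genes did so was not counted. With no filter on low counts, edgeR called 29 members higher and 0 lower. The 2 members not tested were Rps28, at 13 and 8 fragments in WT_Cul and 5 and 2 in WT_FI, and Rpl10l, at 0 in all 4 libraries. The estimate was above 0 for 82 of the 84, with a median of 2.10 for the large and 2.07 for the small subunit, against 0.0616 over all genes tested. The groups did not overlap for 76 members that were higher in WT_Cul (90.5%, against 35.5% of all genes) and for 1 that was lower (against 35.4%). Within both indices WT_Cul was higher for 79 members (94%, against 41.8% of all genes) and lower for 1 (against 41.2%). Leaving out a library moved the number of called members: 73 without WT_Cul index 1, 18 without WT_Cul index 0, 11 without WT_FI index 0 and 3 without WT_FI index 1. Those 3, Rpl26, Rps27l and Rps29, were called in all 4 of these fits. DESeq2 called 56 members, 19 of them among the 21.

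Of the large subunit, Rpl26, whose protein also binds the p53 mRNA, had 105 and 67.1 CPM in WT_Cul, against 5.38 and 5.87 CPM in WT_FI. Its log2 fold change was 3.94 (SE 0.43, edgeR adjusted p = 0.0103), the smallest adjusted p of the family. Rpl37a, a zinc-finger protein of the large subunit, had 34.1 and 7.69 CPM in WT_Cul, against 2.75 and 1.46 CPM in WT_FI, a log2 fold change of 3.31 (SE 0.87). The WT_Cul libraries of Rpl37a lay far apart, and it lost its call with limma on log2(FPKM + 1) (2.74, adjusted p = 0.0589). Rpl24, at the joint between the subunits, had 3.16 and 1.61 CPM in WT_Cul, against 0.199 and 0.285 CPM in WT_FI (log2 fold change 3.27, SE 0.71). Rpl27 had 3.24 and 1.39 CPM in WT_Cul, against the same 0.199 and 0.285 CPM in WT_FI (3.23, SE 0.75). These WT_FI values stand for 5 and 8 fragments, so the size of both changes rests on few counts.

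Of the small subunit, Rps29 changed most, with 16.2 and 6.04 CPM in WT_Cul, against 0.717 and 0.569 CPM in WT_FI. That is 406 and 191 fragments against 18 and 16, and a log2 fold change of 4.11 (SE 0.72, edgeR adjusted p = 0.0188). Rpsa had 30.9 and 9.30 CPM in WT_Cul, against 2.35 and 2.06 CPM in WT_FI (log2 fold change 3.18, SE 0.71, edgeR adjusted p = 0.0308). Both genes were separated between the groups. In the FI and Cul tables the same Rpsa stood far higher, at 1361 to 2629 CPM in FI indices 1 and 2 of both genotypes and at 2457 to 3843 CPM in KO_Cul and WT_Cul. Of the 20 members called higher, 14 were under 10 CPM in both WT_FI libraries, and 3 were over 50 CPM in both WT_Cul libraries: Rpl26, Rpl7l1 and Rps27l.

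The members with the most fragments were also higher in both WT_Cul libraries, without passing the test. Rpl4, near the exit tunnel of the large subunit, had 3472 and 1608 CPM in WT_Cul, against 978 and 620.4 CPM in WT_FI (log2 difference 1.67, SE 0.56, edgeR adjusted p = 0.0782). Rplp0, which carries the stalk that recruits elongation factors, had 858 and 575 CPM in WT_Cul, against 302 and 137 CPM in WT_FI (1.71, SE 0.54). Rps6 had 37.9 and 14.6 CPM in WT_Cul, against 9.16 and 7.05 CPM in WT_FI (1.69, SE 0.58, edgeR adjusted p = 0.0824). All 3 were separated between the groups, and Rplp0 and Rps6 passed with DESeq2 (adjusted p = 0.0117 and 0.0262). The 9 genes above 100 unscaled CPM in every library had log2 differences of 1.50 to 2.14 with a median of 1.79 and adjusted p from 0.0658 to 0.142, and 0 of them were called.

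Other members named for a known role split in their calls. Rpl5 was called, with 46.8 and 17.7 CPM in WT_Cul, against 6.25 and 3.52 CPM in WT_FI (log2 fold change 2.72, SE 0.65, edgeR adjusted p = 0.0355). Its partner Rpl11 had 4.84 and 1.39 CPM in WT_Cul, against 0.199 and 0.463 CPM in WT_FI, and did not pass (3.21, SE 0.92, edgeR adjusted p = 0.0546), though it passed with DESeq2 (adjusted p = 0.00785) and with no filter on low counts (edgeR adjusted p = 0.0446). Rpl10, which joins the large subunit last, had 2.84 and 2.12 CPM in WT_Cul, against 1.67 and 1.49 CPM in WT_FI (0.64, SE 0.55). Rps27 had 3.88 and 1.17 CPM in WT_Cul, against 2.55 and 1.64 CPM in WT_FI, and the groups overlapped (0.27, SE 0.76).

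**Figure D3:**
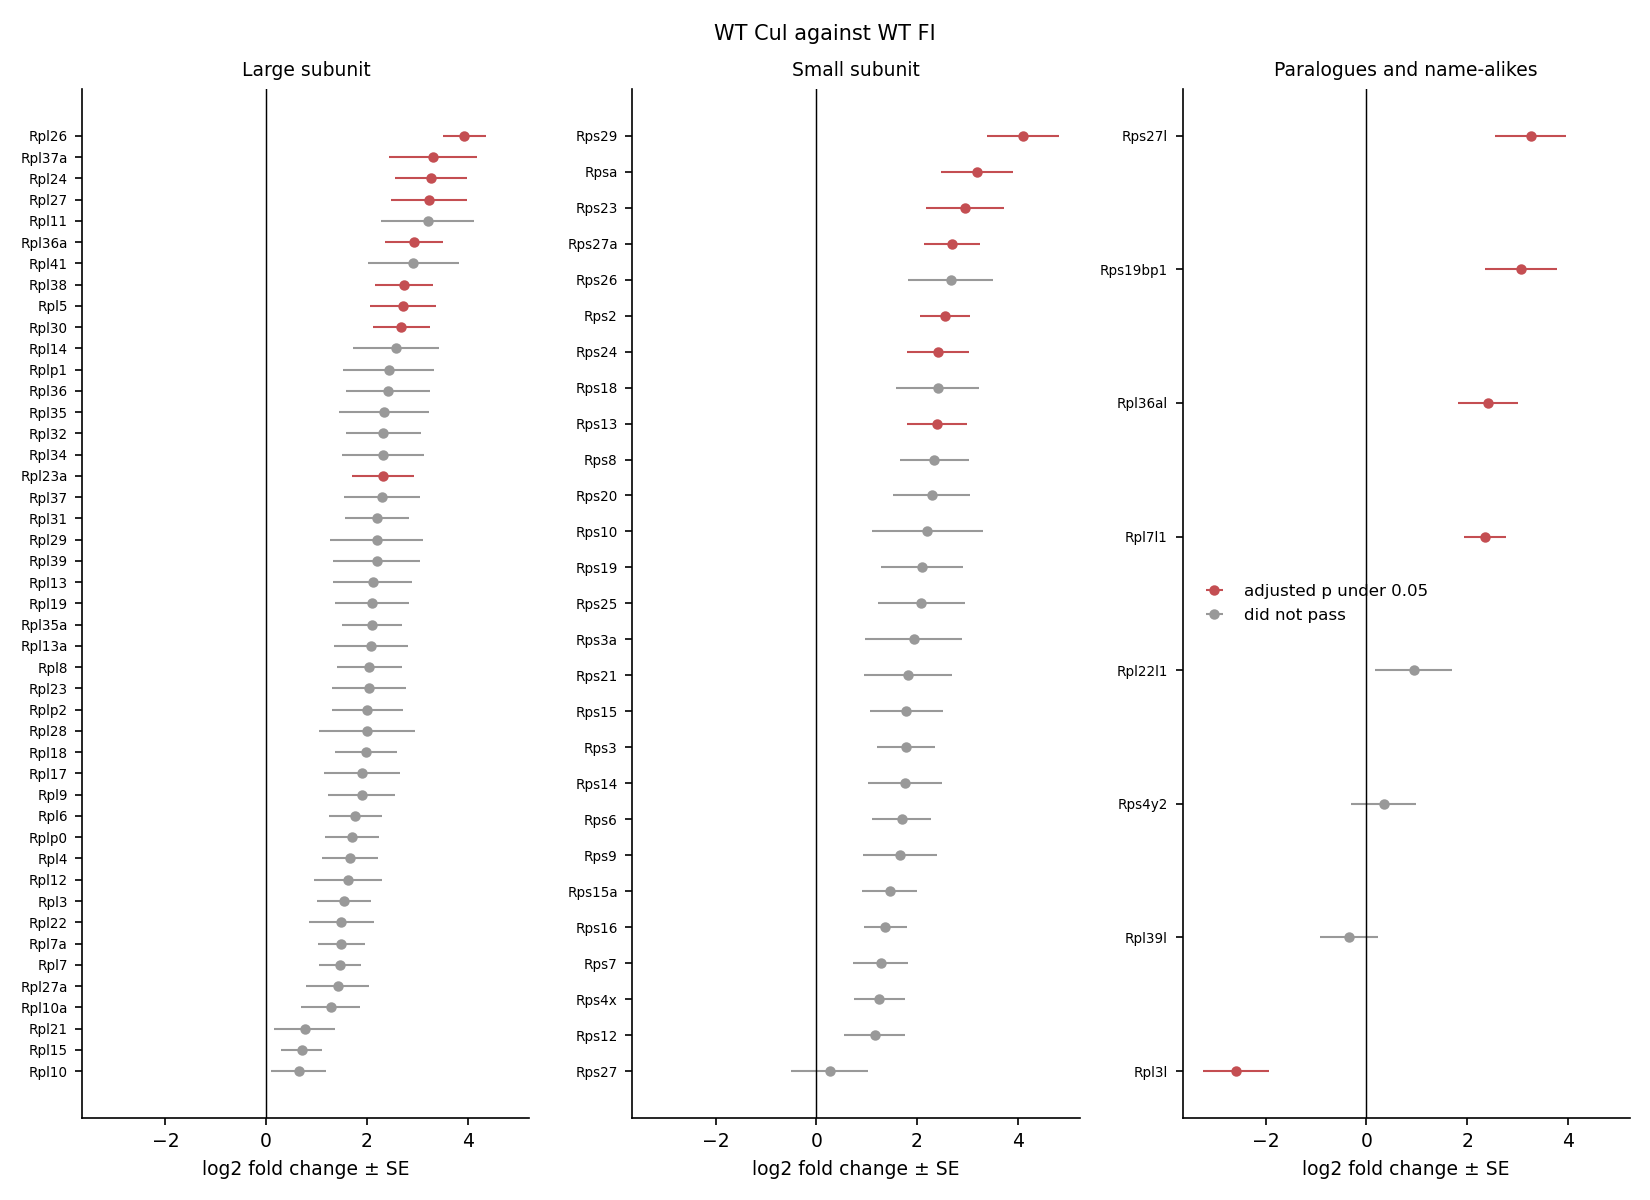
Log2 fold change of WT_Cul against WT_FI with its standard error for tested members, in panels for the large subunit, the small subunit, and the paralogues and name-alikes, with called genes marked. The subunit genes lie above 0, at medians of 2.10 and 2.07, and Rpl3l is the called gene below 0.

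The paralogues did not follow one pattern. Rps27l, a target of p53 close in sequence to Rps27, had 378 and 115 CPM in WT_Cul, against 32.1 and 19.2 CPM in WT_FI (log2 fold change 3.26, SE 0.71, edgeR adjusted p = 0.0288). Rpl7l1, a relative of Rpl7, had 310.1 and 203 CPM in WT_Cul, against 57.6 and 42.2 CPM in WT_FI (2.36, SE 0.42, edgeR adjusted p = 0.0189). Rpl36al had 88.9 and 34.2 CPM in WT_Cul, against 14.0 and 9.14 CPM in WT_FI (2.41, SE 0.59, edgeR adjusted p = 0.0378). These 3 rose, and so did Rps19bp1, whose product binds SIRT1, with 114 and 35.2 CPM in WT_Cul, against 11.5 and 6.33 CPM in WT_FI (3.07, SE 0.71, edgeR adjusted p = 0.0333).

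Rpl3l, the form of Rpl3 found in adult skeletal and heart muscle, was the called member that was lower. It had 0.120 and 0.158 CPM in WT_Cul, against 0.956 and 0.783 CPM in WT_FI, a log2 fold change of -2.59 (SE 0.65, edgeR adjusted p = 0.0391). This is 3 and 5 fragments against 24 and 22, and the call was lost with DESeq2 (adjusted p = 0.0995), with no filter on low counts (adjusted p = 0.0604) and in all 4 fits without a library. Rpl3 itself had 105 and 45.5 CPM in WT_Cul, against 30.9 and 20.7 CPM in WT_FI, and did not pass the test (1.55, SE 0.53, edgeR adjusted p = 0.0815). The summed markers of mature myofibres ranged from 45.0 to 1625 CPM in WT_Cul and from 176 to 210 CPM in WT_FI, and their part in the Rpl3l value was not tested. Rpl22l1, Rpl39l and Rps4y2 overlapped between the groups, with log2 differences of 0.94 (SE 0.77), -0.35 (SE 0.58) and 0.35 (SE 0.64). Rpl10l, a retrocopy used in the testis, was at 0 in 17 of 18 libraries. Paralogues and their parent genes are close in sequence, so the division of fragments between them is uncertain.

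**Figure D4:**
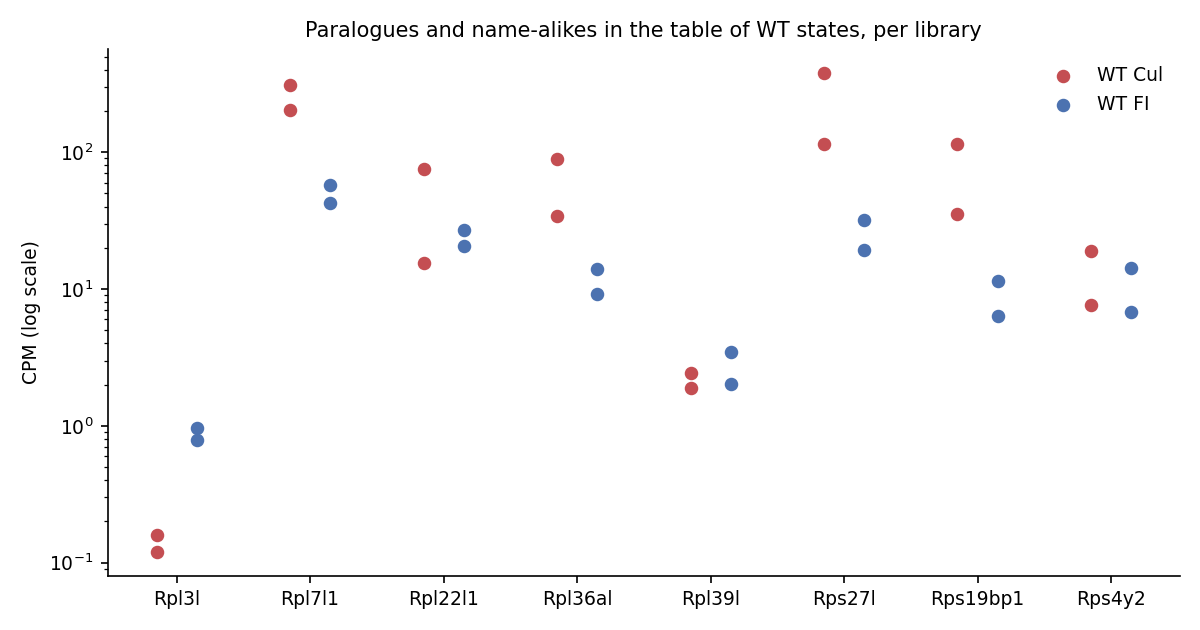
Level of 8 paralogues and name-alikes in CPM in each library of the WT states table, with WT_Cul left of WT_FI. Rps27l, Rpl7l1, Rpl36al and Rps19bp1 are higher in both WT_Cul libraries, Rpl3l is lower in both, and Rpl22l1, Rpl39l and Rps4y2 overlap.

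Among other genes of ribosomes and translation, some of each list below were called higher in WT_Cul, beside 12.6% of all genes tested, and 0 were called lower. Of the ribosomal proteins with other names, Fau (12.6 and 6.33 CPM in WT_Cul, against 1.39 and 1.89 CPM in WT_FI) and Gnb2l1, the scaffold RACK1, were called, with log2 fold changes of 2.52 (SE 0.59) and 1.93 (SE 0.53). Mitochondrial ribosomal proteins were called higher for 36 of 75 genes, with a median of 2.00, such as Mrps18b (3.01, SE 0.40). Translation initiation factors were called higher for 18 of 31 genes, with a median of 1.81, such as Eif2s1, a subunit of the factor that brings the initiator tRNA (2.46, SE 0.34). Elongation factors and other mRNAs with a pyrimidine tract were called higher for 5 of 17 genes, with a median of 1.57, led by Npm1, a nucleolar chaperone (3.46, SE 0.56). Of 15 regulators of ribosomal protein synthesis, 3 were called, Eif4ebp1 (3.76, SE 0.88), Mdm2 (2.64, SE 0.45) and Larp1 (1.76, SE 0.37), a count near the share of all genes, and the list's median was 0.32.

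Markers of other cell types moved with this comparison. Summed fibroblast markers were 407 to 1115 CPM in WT_Cul and 16925 to 23486 CPM in WT_FI, with 5 of 6 genes called lower. Pericyte and smooth muscle markers were 1137 to 1595 CPM in WT_Cul and 16129 to 24072 CPM in WT_FI, with 4 of 4 called lower. Endothelial markers were 32.1 to 55.9 CPM in WT_Cul and 255 to 286 CPM in WT_FI (4 of 5 called lower). Erythroid markers were 0.200 to 0.633 CPM in WT_Cul and 13.4 to 66.0 CPM in WT_FI, with 3 of 4 tested called lower and Hbb-b1 at 0 in both WT_Cul libraries. Leukocyte markers were 7.08 to 9.20 CPM in WT_Cul and 8.61 to 48.2 CPM in WT_FI (0 called), and satellite cell markers were 1181 to 1470 CPM in WT_Cul and 1132 to 1307 CPM in WT_FI, with Calcr, a receptor of quiescent satellite cells, called lower. The WT_FI libraries of the FI table differed from these WT_FI libraries. They held 2183 to 4280 CPM of fibroblast, 2018 to 5801 CPM of pericyte and smooth muscle and 3082 to 3487 CPM of satellite cell markers. That comparison runs across separately processed tables and was not tested. The part of these cell types in the ribosomal protein levels was not tested.

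In freshly isolated cells, no member passed edgeR's test between KO and WT. The 86 genes took 1.12%, 6.29% and 5.55% of fragments in KO_FI, against 1.31%, 8.48% and 5.02% in WT_FI. Index 0 was low in both genotypes and the groups overlapped. The summed level was 0.22 lower in KO_FI on the log2 scale (-0.22, exact permutation p = 0.8, smallest possible 0.1), at -0.21 for the large and -0.23 for the small subunit. Within the index the differences were -0.26, -0.53 and 0.12 for indices 0, 1 and 2, so the sign was not the same in all 3. Without KO_FI index 0 the difference was 0.61 and without WT_FI index 1 it was 0.39, while without both index 0 libraries it was -0.20 (exact permutation p = 1).

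Of the 84 members tested in FI, 0 were called by edgeR (0% of 15146 genes), 0 had an unadjusted p under 0.05, and DESeq2 called 0. All 84 estimates were below 0, with a median of -0.27 for the large and -0.26 for the small subunit, against -0.0268 over all genes. These medians became 0.29 and 0.26 without KO_FI index 0, and 0.56 and 0.52 without WT_FI index 1. KO was lower within every index for 11 of 84 members (13.1%, against 16.6% of all genes) and higher within every index for 0 (16.1% of all genes). The members with the smallest p were Rpl39l, Rpl22l1, Rpl8 and Rpl22, none of them called. Rpl39l, a paralogue of Rpl39 known from the testis, had 0.247, 0.266 and 0.228 CPM in KO_FI, against 0.439, 0.320 and 0.904 CPM in WT_FI (log2 difference -1.14, SE 0.50, edgeR adjusted p = 1.00). It was the single member without overlap between the groups (3.65% of all genes were lower without overlap, and 5.57% higher). Rpl22, an RNA-binding protein of the large subunit, had 339, 366 and 335 CPM in KO_FI, against 355, 577 and 339 CPM in WT_FI (-0.29, SE 0.23). Rpl22l1, its paralogue, had 28.0, 33.0 and 28.7 CPM in KO_FI, against 32.0, 51.0 and 32.3 CPM in WT_FI (-0.36, SE 0.21). In both genes WT_FI index 1 stood above the other 5 libraries, which lay close together.

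Among members with a role outside the ribosome, Rps6 had 16.2, 1538 and 1345 CPM in KO_FI, against 21.2, 2222 and 1205 CPM in WT_FI (-0.25, SE 1.77). Rpl5 had 21.6, 1412 and 1165 CPM in KO_FI, against 23.6, 1828 and 1045 CPM in WT_FI (-0.16, SE 1.67). Rpl11 had 0.393, 754 and 652 CPM in KO_FI, against 0.668, 1094 and 604 CPM in WT_FI (-0.27, SE 2.40). For these genes the spread between index 0 and the rest was far larger than any difference between genotypes, and WT_FI index 1 was the highest library of each. Rpl4, among the 9 genes above 100 unscaled CPM in every library, had 1294, 2165 and 1896 CPM in KO_FI, against 1506, 2962 and 1702 CPM in WT_FI (-0.20, SE 0.33). Rps19bp1 had 10.5, 10.2 and 9.64 CPM in KO_FI, against 10.5, 14.7 and 9.62 CPM in WT_FI (-0.20, SE 0.20). Summed marker levels overlapped between KO_FI and WT_FI, at 1989 to 4363 CPM against 2183 to 4280 CPM for fibroblasts and 3248 to 4243 CPM against 3082 to 3487 CPM for satellite cells.

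In proliferating cells no member passed edgeR's test between KO and WT. The 86 genes took 9.25% and 7.65% of fragments in KO_Cul, against 8.66% and 7.07% in WT_Cul. Index 0 was higher than index 1 in both genotypes and the groups overlapped. The summed log2 level was 0.11 higher in KO_Cul (exact permutation p = 0.667, smallest possible 0.333), at 0.12 for the large and 0.10 for the small subunit, and 0.0772 and 0.14 within indices 0 and 1. Without KO_Cul index 0 the difference was -0.10, and without WT_Cul index 1 it was -0.12.

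Of the 83 members tested in Cul, 0 were called by edgeR (0% of 13963 genes), 0 had an unadjusted p under 0.05, and DESeq2 called 0. The estimate was above 0 for 72 of 83, with medians of 0.0963 and 0.0892 for the large and small subunit, against 0.0197 over all genes. The medians turned to -0.14 and -0.16 without KO_Cul index 0, and to -0.13 and -0.12 without WT_Cul index 1. KO was higher within both indices for 63 of 83 members (75.9%, against 34.2% of all genes) and lower within both for 5 (27.7% of all genes). The 83 genes share the same 4 libraries, so they are not separate evidence of a direction. Rps27, whose product is also called metallopanstimulin, had 8.09 and 14.8 CPM in KO_Cul, against 7.27 and 4.26 CPM in WT_Cul (log2 difference 0.99, SE 0.45, edgeR adjusted p = 1.00). Rpl29 had 56.2 and 64.7 CPM in KO_Cul, against 53.8 and 55.2 CPM in WT_Cul (0.15, SE 0.20). Rps27 and Rpl29 were the 2 members that were higher without overlap (11.8% of all genes), and 0 were lower without overlap (11.1% of all genes).

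Rpl28, also among the members with the smallest p in Cul, had 1140 and 915 CPM in KO_Cul, against 998 and 771 CPM in WT_Cul, and the genotypes overlapped (0.22, SE 0.27). Rplp0 had 4614 and 3663 CPM in KO_Cul, against 4107 and 3042 CPM in WT_Cul (0.21, SE 0.30), the highest CPM of the genes named here. Rps6 had 2136 and 1813 CPM in KO_Cul, against 2019 and 1554 CPM in WT_Cul (0.14, SE 0.27). Each genotype had its higher value in index 0. Rpsa had 3843 and 2963 CPM in KO_Cul, against 3452 and 2457 CPM in WT_Cul (0.20, SE 0.31), and Rpl5 had 1989 and 1958 CPM in KO_Cul, against 1973 and 1698 CPM in WT_Cul (0.10, SE 0.24). Its partner Rpl11 had 1334 and 884 CPM in KO_Cul, against 1281 and 867 CPM in WT_Cul (0.05, SE 0.34). All of these overlapped between genotypes. Rps19bp1 had 53.2 and 44.1 CPM in KO_Cul, against 51.5 and 41.4 CPM in WT_Cul (0.07, SE 0.23). Rpl26 had 78.4 and 44.7 CPM in KO_Cul, against 79.3 and 48.8 CPM in WT_Cul. In the FI table the same gene had 0.887, 1.42 and 3.22 CPM in KO_FI, against 0.791, 4.10 and 2.89 CPM in WT_FI. Rpl26 was thus lower in the FI libraries of every index than in the Cul libraries, a difference across separately processed tables that was not tested. Fibroblast markers summed to 44.3 to 61.7 CPM in KO_Cul and 12.5 to 17.4 CPM in WT_Cul, with 0 of 6 called, while satellite cell markers were 1059 to 1188 CPM in KO_Cul and 1018 to 1103 CPM in WT_Cul. The part of the fibroblast markers in these values was not tested.

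In cells after 24 hours in differentiation medium, no member passed edgeR's test between KO and WT. The 86 genes took 6.05% and 6.01% of fragments in KO_Diff, against 6.29% and 10.2% in WT_Diff. WT_Diff index 1 was high and the other 3 libraries were close together, with both KO_Diff shares below both WT_Diff shares. The summed log2 level was 0.38 lower in KO_Diff (-0.38, exact permutation p = 0.667, smallest possible 0.333), at -0.37 for the large and -0.41 for the small subunit. Within indices 0 and 1 it was -0.0511 and -0.71, and without WT_Diff index 1 it was 0.0366. Without WT_Diff index 0 it was -0.80. Relative to library totals, with no TMM scaling, the difference was -0.41 and the groups did not overlap (exact permutation p = 0.333, the smallest possible), whereas with TMM scaling they did.

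Of the 83 members tested in Diff, 0 were called by edgeR (0% of 14482 genes), 0 had an unadjusted p under 0.05, and DESeq2 called 0. The estimate was below 0 for 82 of 83, with medians of -0.46 and -0.49 for the large and small subunit, against -0.00617 over all genes. Without WT_Diff index 1 the medians were 0.0151 and 0.0259. KO was lower within both indices for 65 of 83 members (78.3%, against 23.2% of all genes) and higher within both for 1 (23.3% of all genes). The groups did not overlap for 10 members that were lower in KO_Diff (12%, against 6.85% of all genes) and for 1 that was higher (6.39% of all genes).

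That 1 member was Rps27, with 5.39 and 5.46 CPM in KO_Diff, against 3.14 and 2.77 CPM in WT_Diff (log2 difference 0.88, SE 0.51, edgeR adjusted p = 1.00). Rps27 was thus above WT in both KO_Cul and KO_Diff, at levels under 15 CPM and without a call in either state. In FI its estimate was below 0 and the groups overlapped, at 8.21, 11.6 and 11.9 unscaled CPM in KO_FI, against 9.58, 11.9 and 11.1 in WT_FI. Rps4y2, a relative of Rps4, had 6.42 and 5.44 CPM in KO_Diff, against 8.34 and 12.1 CPM in WT_Diff (-0.78, SE 0.49). Rpl38, known in mouse embryos for the translation of Hox mRNAs, had 263 and 336 CPM in KO_Diff, against 332 and 613 CPM in WT_Diff (-0.66, SE 0.47). Rps15a had 337 and 418 CPM in KO_Diff, against 423 and 709 CPM in WT_Diff (-0.58, SE 0.45). Rps6 had 1290 and 1409 CPM in KO_Diff, against 1344 and 2345 CPM in WT_Diff (-0.45, SE 0.46). In Rpl38, Rps15a and Rps6 the values of WT_Diff index 0 lay near those of KO_Diff, and WT_Diff index 1 stood above. Rplp0 had 2930 and 3392 CPM in KO_Diff, against 2851 and 5121 CPM in WT_Diff (-0.33, SE 0.47). Rpl5 had 1287 and 1337 CPM in KO_Diff, against 1379 and 2058 CPM in WT_Diff (-0.39, SE 0.42), one of the members without overlap. Rpl3l was at 0.0465 and 0.249 CPM in KO_Diff and at 0.0228 and 0.117 CPM in WT_Diff, too low to be tested. It was higher in index 1 of both genotypes.

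Marker genes also differed between the Diff libraries. Summed myofibre markers were 121 and 13107 CPM in KO_Diff and 51.7 and 6565 CPM in WT_Diff, with index 1 high in both genotypes. Pericyte and smooth muscle markers, mostly Acta2, were 149 and 2973 CPM in KO_Diff and 63.3 and 1409 CPM in WT_Diff, again with index 1 high in both. Fibroblast markers were 172 to 278 CPM in KO_Diff and 46.8 to 48.8 CPM in WT_Diff, with 0 of 6 called and Lum at 0 in index 1 of both. Satellite cell markers were 1523 to 2068 CPM in KO_Diff and 1301 to 1585 CPM in WT_Diff. The part of these markers in the ribosomal protein values was not tested.

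**Figure D5:**
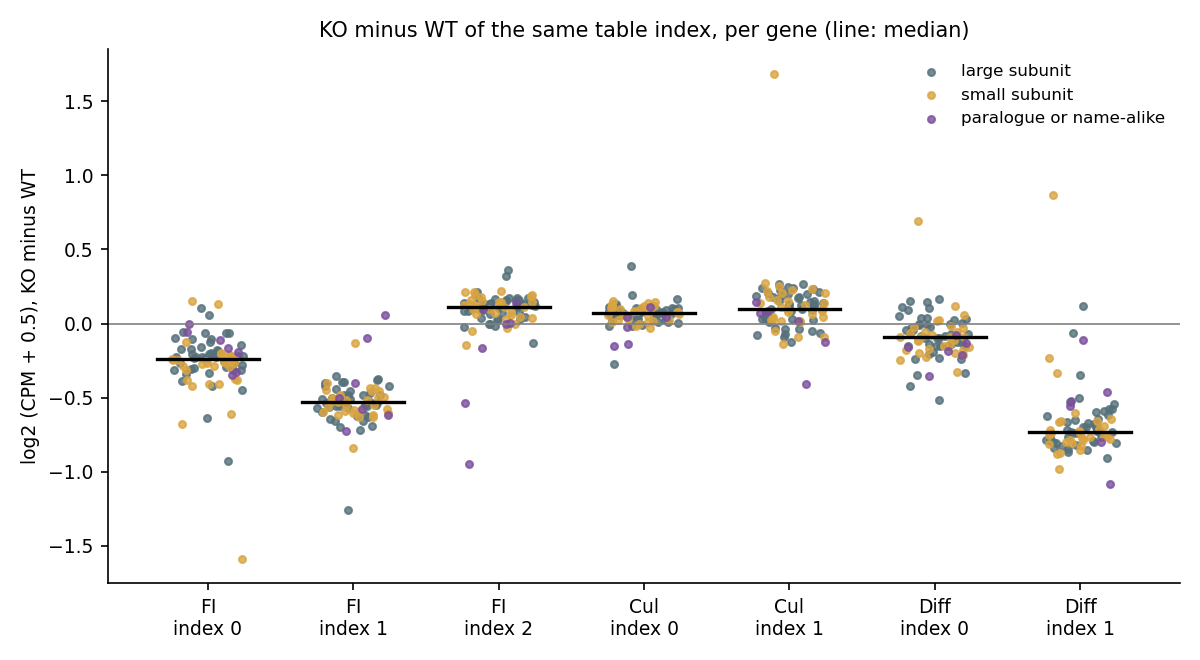
Difference of log2(CPM + 0.5), KO minus WT, for each tested member within each index of the FI, Cul and Diff tables, with a line at the median. The medians are -0.24, -0.53 and 0.11 in FI, 0.0712 and 0.10 in Cul, and -0.0944 and -0.73 in Diff.

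The KO effects of the 3 states were set against each other in 1 edgeR fit over the joined tables, with 85 members among 16698 genes. A difference of the KO effect between Cul and FI, Diff and FI, or Diff and Cul was called for 0 members (and 0 of all genes), and DESeq2 called 0 members too. At an unadjusted p under 0.05 there were 1, 0 and 0 members. The median difference over the members was 0.37 for Cul minus FI, -0.17 for Diff minus FI and -0.55 for Diff minus Cul, against 0.0848, 0.0578 and -0.0146 over all genes. State and table cannot be told apart in this fit.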

How the data were processed

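The authors made the deposited tables with Cuffdiff, per the file headers, which hold for each gene and library an estimated count of raw fragments. The same tables give FPKM values, which the authors had scaled separately in each table, as deposited. The submitters' processing notes also name Bowtie, TopHat, SICER and mm9, with neither roles nor versions. Estimated counts were rounded. Genes with a status other than OK in any library were dropped from a table (22 in FI, 12 in Cul, 19 in Diff, 27 in the table of WT states), and 0 of them were members. Columns left unused numbered 0. The table letter for proliferating cells was taken as Cul, since it was the one condition left to assign. No library was a copy of another of its group (lowest chi-square per degree of freedom 26.8).

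Each comparison was fitted in its own table with edgeR 4.0.16 (quasi-likelihood F test, robust, TMM, filterByExpr) in R 4.3.3. P-values were adjusted by Benjamini and Hochberg's method over every gene of that fit, and calls were made at 0.05. Alternatives used DESeq2 1.42.0, limma 3.58.1 on log2(FPKM + 1) or log2(FPKM + 0.1), other scalings, no filter on low counts, and 1 library left out. The edgeR fits were also run on simulated counts. These held no library differences of the kind described above, so that run does not cover them. Sums were compared by exact permutation over libraries in R, and Spearman's rho was computed with scipy 1.17.1. The members and gene lists were chosen with earlier results of these data known, and the alternatives without both index 0 libraries, and DESeq2 with the block, were added after seeing the data. Genes were named by rule: all paralogues and name-alikes, the called members of largest fold change, at most 8 higher and 8 lower (or the 4 with the smallest p), the 3 highest and 3 lowest per length in each subunit, 10 genes of known role, and in other lists those with the smallest p. Some genes that the rule names are not reported here. Libraries with the same table index deviated together in FI (correlations 0.86, 0.70 and 0.55 for indices 0, 1 and 2). KO_FI index 2 correlated about as well with WT_FI index 1 (0.554) as with WT_FI index 2 (0.548). The index thus pairs the index 0 libraries, while the pairing of indices 1 and 2 is not settled. The blocked fit also called 0 members in FI.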

Additional observations from a re-analysis of the deposited data

Results flagged for a closer look

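The summed ribosomal protein level was higher in KO than in WT within both indices of Cul (log2 differences 0.0772 and 0.14) and lower in KO than in WT within both indices of Diff (-0.0511 and -0.71). The KO effect in Diff minus that in Cul was -0.49 on the log2 scale of the sum. This was singled out because every index of one state lay on one side of 0 and every index of the other on the opposite side. The difference between the sums was not tested. Gene by gene, the edgeR contrast of the same effects called 0 of 85 members, with a median difference of -0.55. Without WT_Diff index 1 the Diff effect was 0.0366, and without KO_Cul index 0 or without WT_Cul index 1 the Cul effect was -0.10 or -0.12.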

How the results depend on the processing

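In WT_Cul against WT_FI the number of called members was 56 with DESeq2, 65 with the replicate block and 62 with DESeq2 and the block, against 21, and 3 to 73 with 1 library left out. There the index is only a shared number (2 pairs, correlation 0.44, and 0.81 in both Cul and Diff). With the replicate block, 0 members were called in each KO comparison, and the sign permutation within the index gave p = 0.5 for each sum, which is the smallest that the 2 pairs of Cul and of Diff allow but not the smallest for the 3 pairs of FI. With 1 library left out, the summed difference ranged from -1.02 to 0.61 in FI (large subunit -1.08 to 0.68, small subunit -0.96 to 0.53), from -0.12 to 0.33 in Cul (-0.11 to 0.33 and -0.12 to 0.32), from -0.80 to 0.0366 in Diff (-0.78 to 0.0546 and -0.82 to 0.0147) and from 1.02 to 2.53 in WT_Cul against WT_FI (1.05 to 2.48 and 0.94 to 2.57). The signs turned without KO_FI index 0 or WT_FI index 1 (and for the large subunit WT_FI index 2, at 0.0216), without KO_Cul index 0 or WT_Cul index 1, and without WT_Diff index 1, and the cause was not tested. With 1 library left out, the sign turned in at least 1 fit for 75 of 84 members in FI, 79 of 83 in Cul, 47 of 83 in Diff and 5 of 84 in WT_Cul against WT_FI. Those 5 were Rpl21 (-0.0825 to 1.27), Rps27 (-0.87 to 0.88), Rpl22l1 (-0.66 to 1.66), Rpl39l (-0.68 to 0.0854) and Rps4y2 (-0.50 to 0.96). Other scalings and summed FPKM kept the direction of each sum. Counts over all genes moved: DESeq2 called 117 in FI and 3 in Cul, with the block it called 251, 392 and 99 in FI, Cul and Diff, and without both index 0 libraries of FI 410, while edgeR with the block called 3 in Cul and 147 in Diff, with 0 members among any of these. With 2 or 3 libraries a group, an exact test cannot reach 0.05, and genes with a few fragments in a library are the least certain.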

Other observations

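Between KO and WT, edgeR called 0 genes of the lists of mitochondrial ribosomal proteins, translation initiation factors, and other mRNAs with a pyrimidine tract in any of the 3 states. Of 76 mitochondrial ribosomal proteins, 73 had an estimate below 0 in KO_FI against WT_FI (median -0.15), 66 had one above 0 in KO_Cul against WT_Cul (0.0911) and 74 had one below 0 in KO_Diff against WT_Diff (-0.19), against medians of -0.0268, 0.0197 and -0.00617 over all genes tested. The initiation factors had medians of -0.21, 0.0768 and -0.12 in the same order, and the tract mRNAs -0.29, 0.0201 and -0.20. All these genes were read in the same libraries as the cytoplasmic ribosomal proteins, so they are not separate evidence of a direction.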
